A study of Mus musculus with 6 samples.

Results

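The glypicans and syndecans are the families of proteins that carry heparan sulfate chains at the cell surface, and their 10 genes (Gpc1 to Gpc6 and Sdc1 to Sdc4) were taken by symbol from the 24346 genes of the deposited tables. All 10 were present, 6 glypicans and 4 syndecans. RNA had been sequenced from mandibular condylar cartilage, the growth cartilage of the jaw joint, of mice. The 3 mutant libraries came from mice in which Ihh, the gene of the signal Indian hedgehog, was targeted for deletion in craniofacial neural crest cells, from which the skeleton of the lower jaw derives. The 3 control libraries were labelled fl/fl, the usual notation for a floxed gene without recombination. The series' text mentions a check of mutant samples for Ihh, Cre and Tomato, and the sources used here do not name the promoter of the Cre, the deleted part of the gene, or the age and sex of the mice. The labels do not tie libraries to individual animals, and a p-value here speaks of the variation among libraries, some of which may be technical.

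Glypicans are tethered to the outer face of the membrane by a lipid (GPI) anchor and have a compact, cysteine-rich core, whereas syndecans span the membrane and end in a short tail inside the cell that binds PDZ-domain proteins and, in Sdc4, protein kinase C. The heparan sulfate chains of both bind growth factors and morphogens, including hedgehogs, Wnts, BMPs and FGFs, and shape how far these spread and how well they reach their receptors. In growth cartilage, heparan sulfate limits the range of Ihh, and loss of human GPC3 causes an overgrowth syndrome with skeletal features. Gpc3 is known to compete with the receptor Ptch1 for hedgehog ligands.

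The targeted gene was examined first. Ihh measured 3.73, 2.51 and 3.74 FPKM in fl/fl 1, 2 and 3 and 2.18, 2.33 and 2.66 FPKM in mutants 1, 2 and 3. The groups overlapped (log2 fold change -0.34 ± 0.30, limma adjusted p = 0.724), and these libraries do not by themselves show the loss of its RNA. All 6 values of Ihh lay below the 90th percentile of olfactory receptor genes (6.49 to 8.69 FPKM), a measure of background described below. At such levels neither loss nor persistence of the RNA can be read from the values.

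Values were FPKM, fragments scaled for transcript length and library total, so that levels may be compared between genes. The spacing of values gave the smallest whole numbers of fragments that explain all 6 values of each of the 10 genes, with a largest deviation of 0.0044 of a fragment. Cufflinks estimates transcript abundances and need not give whole fragments, so the fragment numbers, and the counting errors and intervals made from them, are an inference from the values. From 672 genes with 1 annotated transcript, the scaling total of fl/fl 1 was estimated at 1322000 fragments (quartiles 1212000 and 1368000), and the totals of the 6 libraries lay between 1313000 and 1759000. Olfactory receptor genes, which are silent in most tissues, had a 90th percentile of 6.49 to 8.69 FPKM, and a value of that size or below is not separable from background. The libraries were checked against markers of the labelled tissue. All 7 chondrocyte markers passed the filter and summed to 274 to 366 FPKM in fl/fl and 107 to 167 FPKM in mutants. The 9 skeletal muscle markers summed to 2640 to 6078 FPKM in fl/fl and 11572 to 21332 FPKM in mutants. Xist, transcribed from the inactive X chromosome of females, measured 29.5 and 29.2 FPKM in fl/fl 1 and fl/fl 2 and 0.608 FPKM in fl/fl 3, and the Y-linked Eif2s3y measured 42.1 FPKM in fl/fl 3. Mutants had 0.577 to 0.984 FPKM of Xist and 38.4 to 47.4 FPKM of Eif2s3y. Libraries with the female pattern were thus found in fl/fl only, and Gpc3 and Gpc4 lie on the X chromosome.

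In mm10 coordinates of GENCODE M21, Gpc3 spans chromosome X from 52272426 to 52613950 and Gpc4 from 52053021 to 52165252, both on the minus strand, with a gap of 107.2 kb and 0 protein-coding genes between them. Gpc5 (chromosome 14, 115092215 to 116525179) and Gpc6 (chromosome 14, 116925315 to 117976544) form a second neighbouring pair on the plus strand, 400.1 kb apart and again with 0 protein-coding genes between. Gpc5 and Gpc6 spread over 1433.0 and 1051.2 kb, whereas the compact Gpc2 (chromosome 5, 138273655 to 138280005, minus strand) spans 6.4 kb. Gpc1 lies on chromosome 1 from 92831645 to 92860779 on the plus strand. The syndecans lie apart, Sdc1 on chromosome 12 (8771323 to 8793715, plus), Sdc2 on chromosome 15 (32920723 to 33034935, plus), Sdc3 on chromosome 4 (130792537 to 130826319, plus) and Sdc4 on chromosome 2 (164424247 to 164443887, minus). Some exons are shared with other annotated genes, and reads from the shared bases cannot be assigned to 1 gene in libraries that do not mark strand, or, for Gpc2, whatever the strand. These are 977 bases of Gpc1 with the antisense gene Ankmy1 (0.652 to 1.15 FPKM), 2376 bases of Gpc2 with the overlapping gene model Gm43720 on the same strand, 107 bases of Gpc5 with an antisense transcript, and 415 and 48 bases of Sdc3 with antisense genes.

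The RefSeq table (GRCm38.p6) matched 7 of the 10 genes to a start site, and the 250 bases upstream are shown for the glypicans with the highest and the lowest mean level in fl/fl cartilage, Gpc3 and Gpc5, because they differ in base composition. Capitals mark matches, on either strand, to the letters of 4 motifs, none of which contains another. The GC box was searched as GGGCGG. The CCAAT box was searched by the letters of its name. The TATA box was searched as TATAAA. The motif of the GLI factors, through which hedgehog signals reach genes, was searched as GACCACCCA. The first sequence is chrX:52613975-52614224 on the minus strand and the second chr14:115091965-115092214 on the plus strand.
Gpc3: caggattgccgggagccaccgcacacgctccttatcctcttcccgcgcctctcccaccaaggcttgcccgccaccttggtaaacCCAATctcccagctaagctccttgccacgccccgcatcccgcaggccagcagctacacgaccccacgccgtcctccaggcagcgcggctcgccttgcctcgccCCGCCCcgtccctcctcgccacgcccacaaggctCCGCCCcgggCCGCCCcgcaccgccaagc
Gpc5: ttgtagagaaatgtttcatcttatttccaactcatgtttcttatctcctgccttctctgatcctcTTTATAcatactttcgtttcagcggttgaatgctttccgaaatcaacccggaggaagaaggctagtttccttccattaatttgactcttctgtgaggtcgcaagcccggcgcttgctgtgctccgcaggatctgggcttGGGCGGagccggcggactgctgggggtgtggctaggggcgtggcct
The Gpc3 window was 71.6% G and C, above 92.7% of 32851 windows of that length, with 25 CpG dinucleotides against a median of 6, 3 GC boxes and 1 CCAAT box. The Gpc5 window was 51.2% G and C, above 45.5% of windows, with 12 CpG dinucleotides, 1 GC box and 1 TATA box on the opposite strand. GC boxes were held by 32.7% of all windows, CCAAT boxes by 33.8%, TATA boxes by 12.4% and the GLI motif by 0.225%. None of the 7 windows of the family held the GLI letters, which says only that they are not in these bases.

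Members differed in level by more than an order of magnitude. In fl/fl cartilage Gpc3 (109 ± 22.0 FPKM, mean ± SD, n = 3 here and below) and Gpc1 (103 ± 14.8 FPKM) stood highest, with overlapping values, followed by Sdc2 at 86.5 ± 10.2 FPKM, whose highest library also reached the range of Gpc1. Below them the order Sdc4 (64.0 ± 10.3 FPKM), Sdc1 (37.9 ± 6.43 FPKM), Sdc3 (26.8 ± 4.46 FPKM), Gpc4 (19.3 ± 1.25 FPKM) and Gpc6 (6.12 ± 0.18 FPKM) had no overlap between neighbours. Gpc2 (3.99 ± 1.04 FPKM) and Gpc5 (3.54 ± 1.09 FPKM) overlapped each other. In mutants the order was Gpc1 (93.5 ± 29.3 FPKM), Sdc4 (54.1 ± 15.1 FPKM), Gpc3 (53.1 ± 19.7 FPKM), Sdc2 (49.0 ± 8.56 FPKM), Sdc1 (35.6 ± 9.15 FPKM), Sdc3 (32.8 ± 11.8 FPKM), Gpc4 (22.3 ± 1.09 FPKM), Gpc6 (8.10 ± 2.22 FPKM), Gpc5 (3.49 ± 0.90 FPKM) and Gpc2 (1.92 ± 1.03 FPKM). Every pair of neighbours from Sdc4 to Sdc3 overlapped there. In all 6 libraries Gpc2 and Gpc5, and in 5 of 6 Gpc6, measured less than the 90th percentile among olfactory receptors, and these levels do not establish that they are expressed in this tissue.

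**Figure D1:**
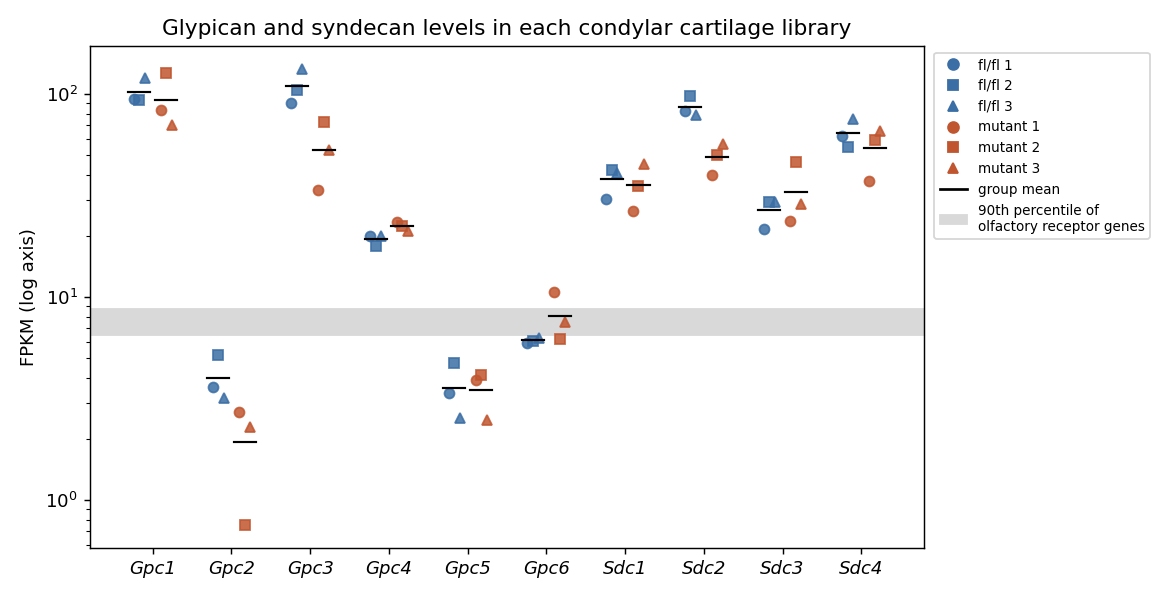
FPKM (log axis) of each glypican and syndecan gene in the 3 fl/fl (blue) and 3 mutant (orange) libraries, with group means as black bars and the range over libraries of the 90th percentile of olfactory receptor genes in grey. Gpc3, Sdc2 and Gpc2 had all 3 mutant points below all 3 fl/fl points, and Gpc4 had all 3 above. Gpc2 and Gpc5 lay below the grey band throughout.

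Mutant cartilage was compared with fl/fl cartilage to ask which of these carriers of hedgehog-binding chains differed after deletion of Ihh. No member passed the test: 0 of 10 had an adjusted p below 0.05 (limma on log2(FPKM + 1), Benjamini-Hochberg over 18715 genes), where 232 of all genes tested, 1.24%, did (0.775% higher and 0.465% lower in mutants). At an unadjusted p below 0.05, 2 members were lower in mutants, Gpc3 and Sdc2, and 0 were higher, where 6.11% of all genes were lower and 7.94% higher. Mutant and fl/fl values did not overlap in 4 members, against 19.2% of all genes. Those were Gpc3, Sdc2 and Gpc2, lower in mutants (9.40% of all genes), and Gpc4, higher (9.77% of all genes). The median log2 fold change was -0.14 over the 10 members and 8.48e-04 over all genes tested. All 10 members passed the filter on low values. In tissue RNA, fewer cells of a type and less RNA per cell cannot be told apart.

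**Figure D2:**
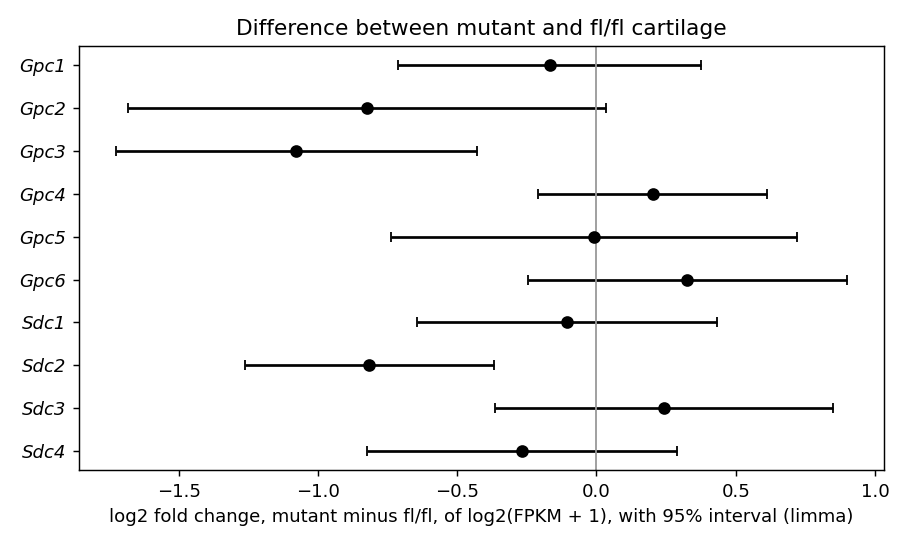
Log2 fold change of each member (mutant minus fl/fl, on the log2(FPKM + 1) scale) with its 95% interval from limma, without adjustment for the number of genes. The intervals of Gpc3 and Sdc2 lie wholly below 0, and the other 8 include 0.

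Gpc3, the glypican that binds hedgehogs without promoting their signal, measured 89.8, 104.7 and 133 FPKM in fl/fl 1, 2 and 3 and 33.5, 72.8 and 52.9 FPKM in mutants 1, 2 and 3. Every mutant library was below every fl/fl library, and mutant 2 was the nearest to them. These values rest on 266, 308 and 525 fragments in fl/fl and 99, 259 and 165 in mutants. The mutant mean was 0.486 of the fl/fl mean, and the log2 fold change was -1.08 ± 0.29 (SE; 95% interval -1.73 to -0.43; limma adjusted p = 0.118). Fl/fl 3, with the Y-linked transcript, had the highest Gpc3 of the 6 libraries, and without fl/fl 1 and fl/fl 2 the log2 fold change was -1.38 (adjusted p = 0.459, the lone control being assumed to vary as the mutants do). The chondrocyte marker sum was lower and the muscle marker sum higher in the same mutants. The mean log2 level of the muscle markers was 6.48 to 7.35 in fl/fl and 8.33 to 9.56 in mutants. With 6 libraries and no overlap, such a covariate is hardly separable from group, and fits with it cannot tell muscle content from group. With the mean of the muscle markers as a covariate the log2 fold change of Gpc3 was -1.46 ± 0.71 (adjusted p = 0.822). Over 16 alternatives its adjusted p ranged from 0.0537 to 0.822.

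Gpc4, its neighbour on the X chromosome and a co-receptor for Wnt and BMP ligands, did not follow it. It measured 20.05, 17.9 and 19.996 FPKM in fl/fl 1, 2 and 3 and 23.4, 22.4 and 21.2 FPKM in mutants 1, 2 and 3. The groups did not overlap, yet the ratio of the mutant to the fl/fl mean was only 1.157 (log2 fold change 0.20 ± 0.18, 95% interval -0.21 to 0.61, limma adjusted p = 0.728). With 54 to 82 fragments per library, the ratio scaled by library total was 1.152 with an exact 95% interval of 0.946 to 1.404, which covers counting error only. That interval includes 1.

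Gpc1, a glypican that modulates FGF and other heparin-binding factors and is also expressed in muscle, measured 94.7, 93.4 and 119.7 FPKM in fl/fl and 83.6, 126 and 70.4 FPKM in mutants 1, 2 and 3. Mutant 2 held the highest and mutant 3 the lowest of the 6 values, so the groups overlapped on both sides. Its log2 fold change was -0.17 ± 0.24 (95% interval -0.71 to 0.38, limma adjusted p = 0.839), and an equal level as well as a fall by 0.71 on the log2 scale lie within the interval. The sign turned without mutant 3 (0.012), and with the muscle covariate, which is hardly separable from group, the value was -1.20.

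The remaining glypicans had the lowest levels of the family. Gpc2, a glypican best known from developing neurons, gave 12, 17 and 14 fragments in fl/fl and 9, 3 and 8 in mutants, or 3.62, 5.17 and 3.17 FPKM against 2.72, 0.754 and 2.29 FPKM. All mutant values were lower, and the scaled ratio of 0.475 had an exact 95% interval of 0.265 to 0.826 for counting error alone, but the test over libraries did not pass (log2 fold change -0.82 ± 0.38, limma adjusted p = 0.381). Gpc6, whose loss causes a human short-limb dysplasia, measured 5.96, 6.10 and 6.31 FPKM in fl/fl and 10.5, 6.20 and 7.57 FPKM in mutants 1, 2 and 3, with mutant 1 above the rest and mutant 2 inside the fl/fl range (log2 fold change 0.33 ± 0.25, adjusted p = 0.672). With 56 to 99 fragments per library its scaled ratio was 1.299, and the exact 95% interval for counting error alone was 1.070 to 1.577. Its close relative Gpc5 measured 3.38, 4.71 and 2.54 FPKM in fl/fl and 3.90, 4.11 and 2.47 FPKM in mutants, from 44 fragments in each group. The scaled ratio of Gpc5 was 1.022, and the exact 95% interval for counting error alone was 0.657 to 1.588. Over libraries the 95% interval of its log2 fold change from limma was -0.74 to 0.72, and differences within it are not excluded.

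Sdc2, the syndecan of mesenchyme and cartilage condensations, measured 82.7, 98.1 and 78.8 FPKM in fl/fl 1, 2 and 3 and 39.9, 50.2 and 57.0 FPKM in mutants 1, 2 and 3. The groups were separated by a wide gap, from 57.0 FPKM in the highest mutant to 78.8 FPKM in the lowest control. Between 178 and 468 fragments per library stood behind these values, and the mutant mean was 0.567 of the fl/fl mean. The log2 fold change of -0.82 ± 0.20 (95% interval -1.26 to -0.37) had the smallest p of the 10 members, yet an adjusted p of 0.0898 by limma. The muscle and chondrocyte marker sums differed between the same groups. As the mean of the muscle markers did not overlap between groups, a fit with it cannot tell muscle content from group. With the mean of the muscle markers as a covariate the log2 fold change was -0.27 ± 0.44 (adjusted p = 0.954), the highest of 16 alternatives, whose lowest was 0.0546. Against fl/fl 3 alone it was -0.69 (adjusted p = 0.577).

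The other syndecans had overlapping groups. Sdc4, a syndecan of focal adhesions that is found in most tissues, measured 61.8, 55.0 and 75.2 FPKM in fl/fl and 37.1, 59.2 and 65.9 FPKM in mutants. Only mutant 1 was below the fl/fl range (log2 fold change -0.27 ± 0.25, 95% interval -0.83 to 0.29, limma adjusted p = 0.734). Sdc1, the main syndecan of epithelia and plasma cells, measured 30.5, 42.3 and 40.9 FPKM in fl/fl and 26.7, 35.2 and 44.9 FPKM in mutants, with a log2 fold change of -0.11 ± 0.24 (95% interval -0.64 to 0.43). Beside it, 5 epithelial markers summed to 8.27 to 15.9 FPKM in fl/fl and 12.3 to 17.3 FPKM in mutants. The 4 plasma cell markers other than Sdc1 summed to 4.50 to 8.81 FPKM in fl/fl and 11.8 to 14.6 FPKM in mutants. The plasma cell sums did not overlap between groups and the epithelial sums did, but both were made largely of values at background level. Each epithelial value, at most 5.83 FPKM, lay below the olfactory receptor measure of background (6.49 to 8.69 FPKM). So did each plasma cell value except Cd79a in mutant 2, at 10.9 FPKM. No tested marker of either list had an unadjusted p below 0.05 by limma. The sums do not establish a difference in either cell type, and the part of either in the values of Sdc1 was not tested. Sdc3, the syndecan of nerve and of muscle precursor cells and a receptor for pleiotrophin, measured 21.6, 29.4 and 29.3 FPKM in fl/fl and 23.6, 46.1 and 28.8 FPKM in mutants. Mutant 2 set its higher mutant mean: the log2 fold change of 0.24 ± 0.27 (95% interval -0.37 to 0.85) became -0.024 without that library. The 5 markers listed for satellite cells, the muscle precursors, summed to 29.0 to 32.5 FPKM in fl/fl and 47.4 to 56.4 FPKM in mutants. Much of that sum was Chrna1, a receptor subunit also made by muscle fibres, at 16.6 to 20.3 FPKM in fl/fl and 19.3 to 21.8 FPKM in mutants. Myf5, Myod1 and Cdh15 measured 2.60 to 3.74, 2.96 to 6.99 and 2.39 to 3.97 FPKM in fl/fl. In mutants these markers were higher without overlap, as were 9.77% of all genes, at 6.49 to 11.5, 11.6 to 13.4 and 6.76 to 10.05 FPKM. All fl/fl values of Myf5 and Cdh15, and Myod1 in fl/fl 1 and fl/fl 2, lay below the 90th percentile of olfactory receptors in their library. So did Myf5 in mutants 2 and 3 and Cdh15 in mutant 3. Myf5, Myod1 and Cdh15 did not pass the test (limma adjusted p = 0.136, 0.0893 and 0.0838). Pax7, the defining gene of satellite cells, measured 0.772 ± 0.44 and 0.686 ± 0.25 FPKM and did not pass the filter on low values. The part of these cells in the values of Sdc3 was not tested.

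The make-up of each family followed from these values. Gpc3 gave 41.3%, 45.1% and 46.7% of the summed FPKM of the 6 glypicans in fl/fl 1, 2 and 3 and 21.3%, 31.3% and 33.7% in mutants 1, 2 and 3. Gpc1 gave 43.5%, 40.3% and 42.0% in fl/fl and 53.0%, 54.3% and 44.9% in mutants. In fl/fl cartilage the ratio of Gpc1 to Gpc3 was thus near 1 (0.892 to 1.05), and in mutants Gpc1 exceeded Gpc3 in every library (1.33 to 2.50 times). Among syndecans Sdc2 was the largest share in fl/fl, at 42.1%, 43.6% and 35.1%, and gave 31.4%, 26.3% and 29.0% in mutants. Sdc4 exceeded Sdc2 in mutants 2 and 3 but in no fl/fl library, where the ratio of Sdc4 to Sdc2 was 0.561 to 0.955. These shares were chosen after the values were seen and are a description without a test. A ratio shows unequal levels of the 2 genes and does not say which of them differed.

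**Figure D3:**
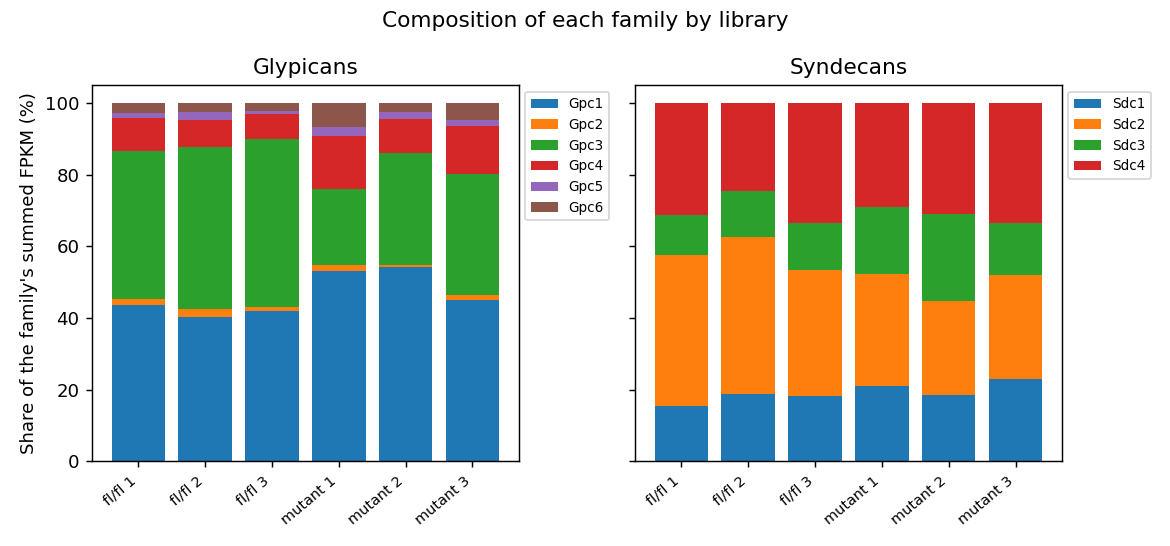
Share of each gene in the summed FPKM of the 6 glypicans (left) and the 4 syndecans (right), in percent, for each of the 6 libraries. The Gpc3 band is 41.3% to 46.7% in fl/fl and 21.3% to 33.7% in mutants, and the Sdc2 band 35.1% to 43.6% and 26.3% to 31.4%.

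The spread between libraries was set, as a description, beside the error that counting the recovered fragments alone would give. For Gpc3 the SD was 20.2% of the mean in fl/fl and 37.1% in mutants, where counting gives 5.45% and 8.17%. Gpc1 in mutants likewise varied by 31.3% against 4.71%, and Sdc3 in mutants by 35.9% against 6.75%. Gpc4 varied by 6.46% in fl/fl and 4.89% in mutants against a counting error of 12.6% and 11.7%, and Gpc6 in fl/fl by 2.92% against 12.7%, and these SDs were smaller than the counting error. In mutants Gpc6 varied by 27.4% against 11.2%. In fl/fl Gpc2 and Gpc5 were close to their counting error, at 26.2% and 30.9% against 26.7% and 26.4%. In mutants Gpc2 varied by 53.8% against 43.6%, and Gpc5 by 25.7% against 27.0%.

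**Figure D4:**
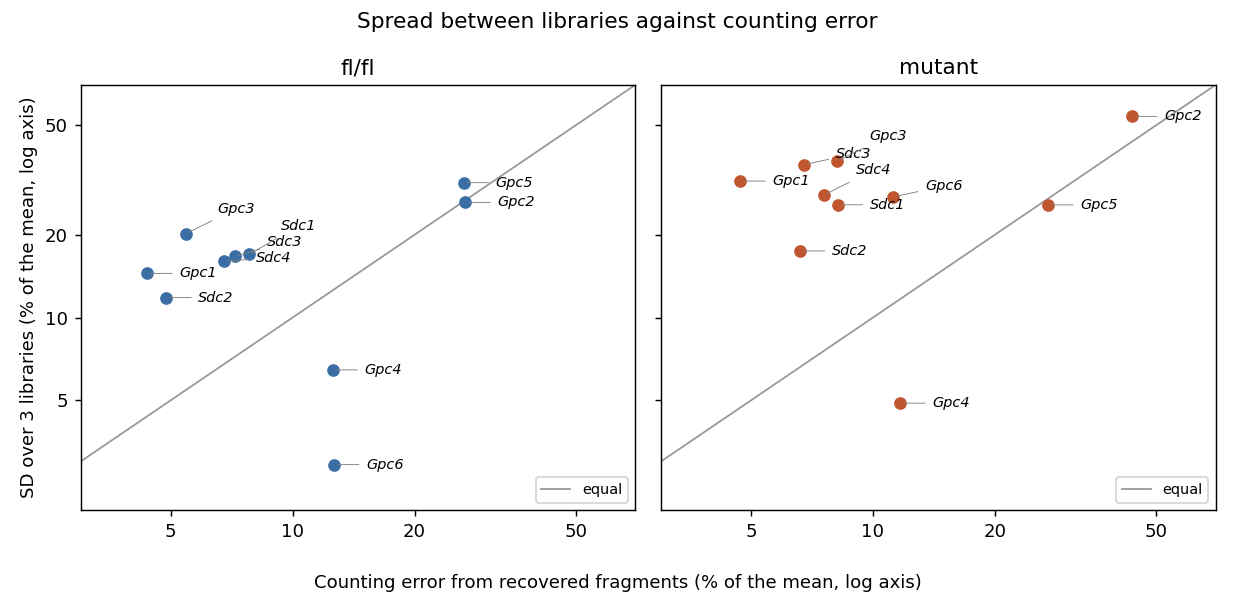
SD over the 3 libraries of a group against the counting error of the recovered fragments, both in percent of the mean on log axes, for fl/fl (left) and mutant (right), with the line of equality in grey. Gpc1, Gpc3 and all 4 syndecans lie above the line in both groups, and Gpc4 lies below it in both.

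The other genes that make, trim, release or use heparan sulfate were taken as lists. The shares to read them against are 0.775% of all genes called higher and 0.465% lower, and, at an unadjusted p below 0.05, 7.94% higher and 6.11% lower. Of 27 enzymes of chain synthesis 24 were tested, 1 rose and 0 fell (2 higher and 3 lower at an unadjusted p below 0.05), with a median log2 fold change of -0.17. The one that rose was Hs3st1, a sulfotransferase that makes the antithrombin-binding form of heparan sulfate and is expressed by endothelium. It measured 1.41, 0.948 and 2.12 FPKM in fl/fl and 10.9, 9.41 and 4.92 FPKM in mutants 1, 2 and 3 (log2 fold change 1.88 ± 0.36, limma adjusted p = 0.0466). All fl/fl values and mutant 3 lay below the 90th percentile of the silent genes. Beside it, 6 endothelial markers summed to 46.1 to 94.0 FPKM in fl/fl and 142 to 169 FPKM in mutants. The part of endothelium in the values of Hs3st1 was not tested. The call of Hs3st1 was lost without fl/fl 1 (adjusted p = 0.132), fl/fl 2 (0.135), fl/fl 3 (0.059), mutant 1 (0.164) or mutant 2 (0.153), and it passed in 3 of 15 alternatives (adjusted p from 0.0245 to 0.959). With the muscle covariate, which is hardly separable from group, its log2 fold change was 0.39. The polymerases that build every chain were measured at 13.04 ± 4.65 and 12.0 ± 1.80 FPKM (Ext1) and 37.1 ± 5.20 and 35.001 ± 3.73 FPKM (Ext2) in fl/fl and mutants, with log2 fold changes of -0.059 and -0.076, and were named after their values were seen.

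Other carriers of heparan sulfate gave 0 calls among 7 tested (1 higher and 1 lower at an unadjusted p below 0.05) and a median of 0.46. Nrp1, a co-receptor of vessels and nerves, measured 13.9, 14.8 and 13.4 FPKM in fl/fl and 21.1, 21.4 and 19.6 FPKM in mutants (adjusted p = 0.229), and Cd44, the hyaluronan receptor, 60.6, 50.4 and 56.3 against 36.3, 41.9 and 44.0 FPKM (adjusted p = 0.3). Of 11 genes that trim or break down the chains 10 were tested, with 0 calls and 0 at an unadjusted p below 0.05, and a median of 0.04. The extracellular sulfatase Sulf1 measured 13.1 ± 1.84 and 9.45 ± 0.55 FPKM and the lysosomal Hgsnat 13.5 ± 1.89 and 19.5 ± 6.71 FPKM. Of 12 genes that cleave or release core proteins 11 were tested with 0 calls and a median of 0.06. Mmp14, a membrane protease that sheds syndecans, measured 189 ± 43.6 and 127 ± 25.1 FPKM and the protease inhibitor Timp3 54.2 ± 9.77 and 81.4 ± 22.0 FPKM, the one lower and the other higher in mutants at an unadjusted p below 0.05. Partners of the syndecan tail gave 0 calls among 10 tested, 0 at an unadjusted p below 0.05 and a median of -0.11. Syntenin (Sdcbp), which binds the end of every syndecan tail, measured 138 ± 9.78 and 105 ± 20.5 FPKM and the small GTPase Rhog 19.7 ± 5.96 and 27.9 ± 7.001 FPKM.

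Of 21 ligands that bind heparan sulfate 20 were tested, with 0 calls (1 higher and 1 lower at an unadjusted p below 0.05) and a median of 0.08. The chemokine Cxcl12 measured 29.7, 25.5 and 36.4 FPKM in fl/fl and 64.9, 89.9 and 47.6 FPKM in mutants, without overlap (adjusted p = 0.0843). It passed the test without mutant 3, after quantile normalization and with a minimum of 5 FPKM, and over 16 alternatives its adjusted p ranged from 0.0368 to 0.964. Midkine (Mdk), a growth factor of developing skeleton, measured 62.7, 70.6 and 109 FPKM in fl/fl and 42.2, 47.2 and 49.1 FPKM in mutants (adjusted p = 0.166). Of 9 hedgehog receptors and targets 1 rose and 1 fell (0.775% and 0.465% of all genes), with a median of -0.22. At an unadjusted p below 0.05, 1 was higher and 3 were lower. The co-receptor Gas1, which like the glypicans is held by a GPI anchor, measured 28.8, 40.2 and 51.7 FPKM in fl/fl and 93.7, 112 and 171 FPKM in mutants (limma adjusted p = 0.0371), the opposite order to Gpc3. Its call was lost without fl/fl 1 (adjusted p = 0.117), fl/fl 2 (0.109), mutant 1 (0.0883) or mutant 2 (0.0976), and it passed in 7 of 16 alternatives (adjusted p from 0.0184 to 0.708). The target Gli1 measured 9.47, 7.10 and 9.53 FPKM in fl/fl and 0.807, 0.168 and 0.573 FPKM in mutants (limma adjusted p = 0.0152). Gli1 lay below the 90th percentile of olfactory receptors in fl/fl 2 (8.56 FPKM) and in all mutants (7.05 to 8.69 FPKM). Its call was lost without fl/fl 1 (adjusted p = 0.0709) or fl/fl 2 (0.0524), and it passed in 10 of 16 alternatives (adjusted p from 0.00774 to 0.708).

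**Figure D5:**
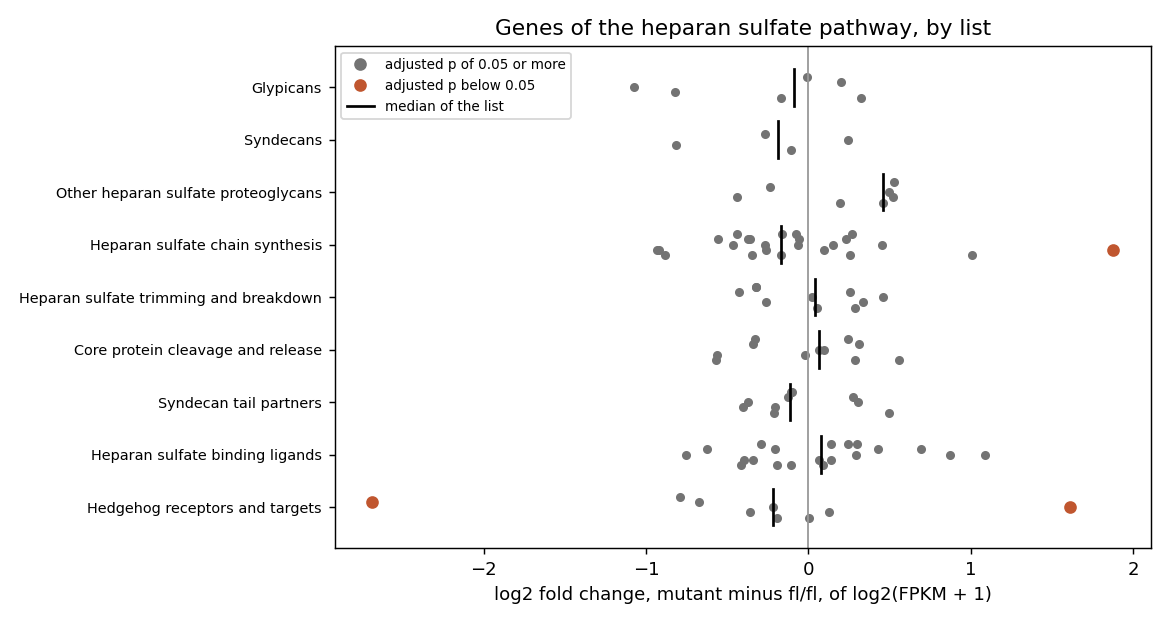
Log2 fold change (mutant minus fl/fl, on the log2(FPKM + 1) scale) of each tested gene of the 2 families and of the 7 lists of related genes, with list medians as black bars and genes with an adjusted p below 0.05 in orange. The orange points are Hs3st1 at 1.88, Gas1 at 1.61 and Gli1 at -2.69, and no glypican or syndecan is among them.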

How the data were processed

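Total RNA was copied to full-length cDNA with the SMART-Seq HT Kit and made into Nextera libraries, per the labels' protocols, and such libraries do not mark strand. The deposited tables hold 1 value per gene, taken to be FPKM made by the authors: the headers name no unit, the values are not whole and the processing notes name Cufflinks. Per the submitters' processing notes, the tools were Cufflinks 2.2.1, TopHat2 2.0.13, SAMtools 0.1.19 and Bowtie2 2.2.3, and the build was mm10. The gene annotation they used is not stated in these sources.

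The test was limma 3.58.1 (R 4.3.3; trend, robust moderation, group as the only term) on log2(FPKM + 1) for genes reaching 1 FPKM in 3 or more libraries, with Benjamini-Hochberg adjustment over all 18715 genes and a threshold of 0.05. This scale understates changes of low genes. The procedure was tested on simulated data. Fragments were recovered as the smallest whole numbers, up to 1000, that fit the 6 values within 0.02 of a fragment at 1 total per library. Multiples of them fit as well, and PCR copies are not separable, so intervals cover counting error only. From each list the called genes, otherwise the 2 with the smallest p, were named. Alternatives covered the pseudocount, the filter, scaling, weights, the replicate number, covariates and each library left out. The members and lists were chosen with earlier results of these data known.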

Additional observations from a re-analysis of the deposited data

How the results depend on the processing

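No member passed the test in any of 16 alternatives. Gpc3, Gpc6, Sdc2 and Sdc4 kept their sign in all of them, with log2 fold changes from -1.46 to -0.79 for Gpc3 (adjusted p from 0.0537) and -0.93 to -0.27 for Sdc2 (adjusted p from 0.0546). Of 158 member values 11 turned sign. With 1 library left out, Gpc5 ranged from -0.17 to 0.17 (turning without fl/fl 2 or mutant 3), Sdc1 from -0.28 to 0.081 (mutant 1), Sdc3 from -0.024 to 0.45 (mutant 2) and Gpc1 from -0.40 to 0.012 (mutant 3). Gpc5 was 0.31 with Xist as a covariate and 0.32 without the 2 fl/fl libraries that express it. With the mean of the muscle markers as a covariate Gpc2 was 0.39, Gpc4 -0.039, Sdc1 0.55, Sdc3 -0.16, Hgsnat -0.41, Rhog -0.30 and Cxcl12 -0.19. The muscle mean did not overlap between groups and is hardly separable from group. The cause of these turns was not tested. The count of 232 called genes became 133 with all detected genes tested, 440 with a minimum of 5 FPKM, 411 with quantile normalization, 2 with the Xist covariate, 2 with the muscle covariate, 5 without the 2 Xist-expressing libraries and 13 to 414 with 1 library left out. With the replicate number as a block (replicate block) it was 2, and the adjusted p of Gpc3 and Sdc2 was 0.147 and 0.191. Same-numbered libraries did not deviate together (correlations of -0.0162 to 0.00628), so the numbers are not taken as pairs. Depth limits Gpc2 and Gpc5, with 3 to 19 fragments per library.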

Other observations

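Glypican introns host microRNA genes. In GENCODE M21, Mir149 lies within Gpc1 and Mir717 and Mir6384 within Gpc3, each on the strand of its host, and these 3 were listed at 0 FPKM in the 6 libraries. Mir6239, within Gpc6 on the opposite strand, was listed at 672, 0 and 505 FPKM in fl/fl 1, 2 and 3 and 0, 0 and 637 FPKM in mutants 1, 2 and 3. The values above 0 ran inversely to the estimated totals of fl/fl 1, fl/fl 3 and mutant 3 (1322000, 1759000 and 1393000 fragments). An equal number of fragments in each library, however small, would give that order. The number behind these values was not tested, and neither they nor the values of 0 establish a level of the microRNA.

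Members were also placed among the olfactory receptor genes of each library. Gpc1, Gpc3 and Sdc2 stood at or above the 99.6th percentile in every library and Gpc4 between the 97.4th and 99.6th. Gpc6 stood between the 85.2nd and 92.4th, Gpc5 between the 68.8th and 82.5th, and Gpc2 between the 45.4th and 83.1st.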
